A study of Drosophila melanogaster with 3 samples.

Results

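The genes described are 10 core components of the Notch signalling pathway of Drosophila melanogaster, namely the ligand gene Ser, the ligand and receptor modifiers fng, neur and mib1, the receptor gene N, the protease gene kuz, the inhibitor gene numb, and the nuclear genes Su(H), H and mam. They were listed by name as pathway components and are 10 of 13945 annotated protein-coding genes. Their peaks were all summits that lay inside the gene body or within 5 kb on either side, which gave 51 of the 8667 summits of the reproducible peak set. Binding of the transcription factor Deaf1 was measured by ChIP-seq, in which chromatin is immunoprecipitated and its DNA sequenced. The embryos came from 1 transgenic line with a stable Deaf1 fusion whose C-terminal tag is green fluorescent protein (GFP). The description names an antibody against GFP although the antibody field reads Deaf1. Whole embryos of both sexes, aged 0 to 24 hours, were pooled, with 3 biological replicates in 1 group and library fragments of 200 to 800 bp. Whole embryos mix all cell types and stages, so a peak cannot be placed in a cell type or a stage, and whether the line also carries untagged Deaf1 is not given in the labels.

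The files list peaks on the dm6 build and no read counts, so depth is unknown. The lists of the 3 replicates and of the pooled data hold 30000 summits each, a fixed length that takes in weak calls. The reproducible set was derived from them by the irreproducible discovery rate (IDR), which asks whether peaks rank alike in the replicates. Signal is the authors' own value per peak, and it is used only within a list. To set the replicates side by side, each replicate's signal was divided by the median of its list (54.4, 52.7 and 41.1 in replicates 1, 2 and 3), and the quotient is called relative signal. With 1 group there was no contrast to test, and the data do not measure RNA from any of these genes.

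Notch is a surface receptor that is activated by ligands of a neighbouring cell. Ligand internalisation, driven by ubiquitin ligases in the sending cell, exposes the receptor to a metalloprotease and then to gamma-secretase, and the freed intracellular domain enters the nucleus. There it joins the DNA-binding protein Suppressor of Hairless and the coactivator Mastermind at target genes such as those of the E(spl) complex, and in the fly embryo the pathway restricts how many cells of the neurogenic ectoderm become neuroblasts. Deaf1 is a DNA-binding protein with a SAND domain, a fold that recognises sequences containing TTCG.

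The sequences under strong IDR summits show where TTCG and TTCGG lie at these genes. Shown for 7 genes, with 50 bp on either side, is the strongest of those IDR summits whose windows overlap no untranslated region (UTR), taken from the RefSeq genome of the same assembly as dm6, with TTCG or TTCGG on either strand (CGAA or CCGAA as printed) in capitals. For neur, N and numb this is not the gene's strongest summit but the next in strength, and no sequence is printed for mam. Each window was taken by the signal of its summit and the absence of a UTR. The placement of the word differs from gene to gene among them.
Ser, chr3R:27194371-27194471, plus strand: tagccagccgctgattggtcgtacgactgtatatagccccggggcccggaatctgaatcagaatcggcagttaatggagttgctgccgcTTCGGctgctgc
fng, chr3L:20949720-20949820, plus strand: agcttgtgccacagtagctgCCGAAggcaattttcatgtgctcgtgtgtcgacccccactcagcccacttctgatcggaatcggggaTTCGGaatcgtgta
neur, chr3R:9031919-9032019, plus strand: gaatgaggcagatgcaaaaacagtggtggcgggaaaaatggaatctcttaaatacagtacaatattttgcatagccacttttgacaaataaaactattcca
mib1, chr3L:16001518-16001618, plus strand: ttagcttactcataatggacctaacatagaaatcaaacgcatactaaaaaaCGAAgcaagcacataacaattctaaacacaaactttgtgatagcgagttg
N, chrX:3143438-3143538, plus strand: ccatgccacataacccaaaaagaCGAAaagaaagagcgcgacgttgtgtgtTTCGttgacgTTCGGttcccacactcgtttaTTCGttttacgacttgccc
kuz, chr2L:13547861-13547961, plus strand: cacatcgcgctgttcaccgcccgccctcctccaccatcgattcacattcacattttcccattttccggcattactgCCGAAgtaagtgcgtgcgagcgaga
numb, chr2L:9449628-9449728, plus strand: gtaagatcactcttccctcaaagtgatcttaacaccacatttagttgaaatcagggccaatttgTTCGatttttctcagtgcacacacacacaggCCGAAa

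Of these windows, those of Ser, fng and numb lie within 500 bp of the gene's own start site, that of kuz lies in an intron of the neighbouring gene B4, and those of neur and N lie in introns of the gene itself. The mib1 window lies downstream of the gene, in an intron of hzg. The fng window holds TTCGG 2 times, 1 on each strand, and those of Ser, N, kuz and numb hold it 1 time each. The mib1 window holds TTCG without the final G, and the neur window holds neither word. The N window holds TTCG 4 times, and its TTCGG, at bases 62 to 66 from the left end, is followed without a gap by the other strand of GTGGGAA at bases 67 to 73. GTGGGAA is a form of the sequence to which Suppressor of Hairless binds, and its presence in the window is a match of letters, not a measured site.

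Over all 51 IDR summits of the 10 genes, TTCGG (either strand) lay within 50 bp of 18, or 35.3%, against 28.9% of all IDR summits. In equal windows centred 300 bp to the right, the shares were 17.6% and 16.3%. The shorter word TTCG (either strand), which every TTCGG contains, lay within 50 bp of 40 of the 51 summits, or 78.4%, against 66.3% of all IDR summits. At 300 bp to the right the share with TTCG was 47.1% at the Notch genes and 55.9% over all IDR summits. Both words were thus more frequent at the summits than beside them, as they were over the whole set, and the share with TTCGG was close to that background. Of the 18 windows with TTCGG, 9 lay at mam and 9 at the other genes. The centre of the nearest TTCGG lay a median of 17.5 bp from the summit (1 to 47 bp), within 25 bp in 11 of 18. The 18 summits with TTCGG had a median IDR signal of 1077 (296 to 8314) and the 33 without it had 559.8 (271 to 7895), and the ranges overlapped over nearly their whole length. The same medians over all IDR summits were 709.9 with TTCGG and 491.0 without. GC content had a median of 48.5% in the windows of the Notch genes and 46.5% over all IDR windows.

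Matches to other words were few. GAGAG, the core of the sequence bound by GAGA factor, was found (either strand) at 13 of 51 summits, or 25.5%, against 22.1% of all IDR summits. The Suppressor of Hairless words (either strand) were found at 3 summits: GTGGGAA at an intron summit of Ser and an intron summit of N, and GTGAGAA at an intron summit of fng. These are 3.92% and 1.96% of the summits, against 1.04% and 1.07% of all IDR summits, which with so few matches gives no basis for a comparison. CAGGTAG (either strand), the sequence bound by the early embryonic factor Zelda, was found at 0 of the 51 windows and at 0.531% of all IDR windows.

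Deaf1 peaks were found at 8 of the 10 genes, and in very unequal numbers. An IDR summit lay within the gene or its 5 kb flanks at all but Su(H) and H, against 56.5% of all protein-coding genes. An IDR summit lay within 500 bp of an own start site at 7 of 10 (Ser, fng, neur, mib1, kuz, numb and mam), against 27.8%. A gene with such a summit is called bound here. At Su(H) and H no list held a summit, as at 25.3% of all protein-coding genes. The 10 genes are long, with a median of 22.9 kb against 2.17 kb over all protein-coding genes, and longer genes were bound more often. Among the 898 genes of 15 to 40 kb, 72.3% were bound and the mean number of IDR summits was 3.18, while 4 of the 5 Notch genes of that length (Ser, fng, neur, N and numb) were bound, with 2 to 6 IDR summits. Among the 5103 genes of 2 to 8 kb, 29.9% were bound with a mean of 1.29 summits, and 1 of the 3 Notch genes of that length (mib1, Su(H) and H) was bound, with 0 to 3 summits. Among the 147 genes of 60 to 100 kb, 78.9% were bound with a mean of 5.52 summits, and both kuz and mam were bound, with 7 and 22. The length classes were drawn after the values were seen. Set beside genes of like length, the share of Notch genes bound was near the background, and 1 gene, mam, lay far above the mean of its class.

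**Figure D1:**
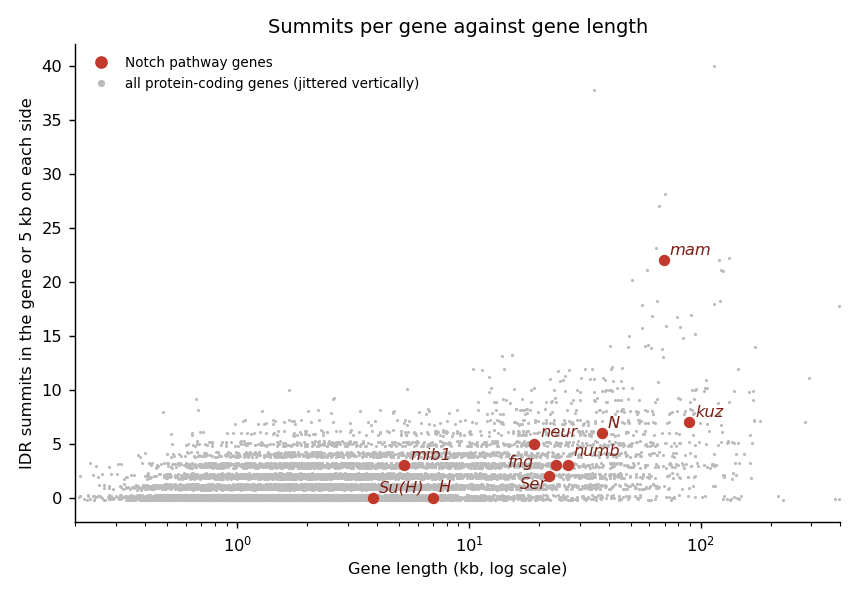
Number of IDR summits per gene (body and 5 kb flanks) against gene length in kb, on a log axis, for all protein-coding genes and for the 10 Notch genes, which are named. mam has 22 IDR summits, and Su(H) and H have 0 at lengths of 3.85 and 6.98 kb.

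The 51 IDR summits were 22 at mam, 7 at kuz, 6 at N, 5 at neur, 3 each at fng, mib1 and numb, and 2 at Ser. Of these 51, 39 lay inside a gene body, 8 upstream and 4 downstream, and 31 lay in an intron of the gene itself. In all, 14 of the 51 (27.5%) lay within 500 bp of an own start site, 7 only within 500 bp of another gene's start site and 30 away from both. Counting any protein-coding start site, the share was 41.2% against 50.9% of all IDR summits. The pooled list added 96 summits outside the IDR set at these genes, for a total of 147, and the replicate lists held 154, 130 and 150. Nearly all IDR summits recurred: 50 of the 51 (98.0%) fell inside a peak of each replicate, against 96.0% of all IDR summits. The IDR set was itself made from the replicates, so this share is a description.

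**Figure D2:**
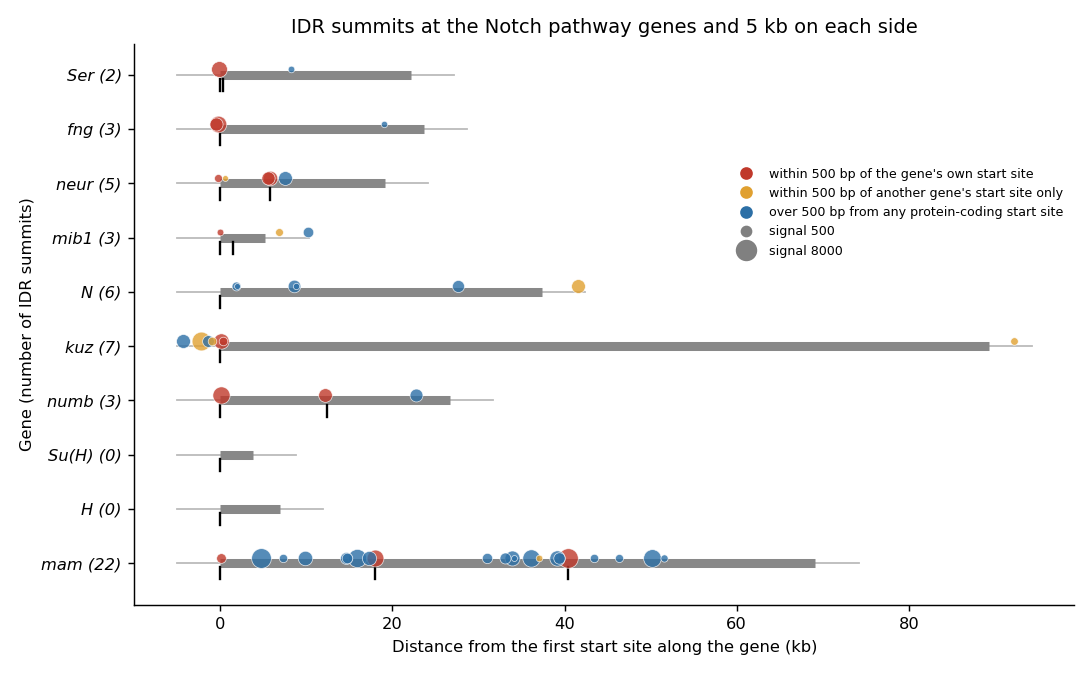
IDR summits at the 10 Notch genes, with distance from the first start site in kb on the x axis, read in the direction of transcription; each circle is a summit, larger with IDR signal and coloured by its position relative to start sites, which are drawn as ticks. Of the 7 summits at kuz 6 stand near its start, while the 22 of mam run from its first start site to 51516 bp into the gene.

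Each gene's strongest IDR summit kept its place in the order of strength in every replicate. From strongest to weakest, the order was mam, kuz, numb, fng, Ser, neur, N and mib1 in replicates 1, 2 and 3 alike. At kuz, N and mib1 that summit lay nearer to a start site of another gene (B4, dnc and hzg). Since the IDR set favours peaks that rank alike in these replicates, the shared order is a description. Relative signal ran from 56.2 ± 0.169 at mam to 3.80 ± 0.506 at mib1 (mean ± SD, n = 3 replicates throughout). The values of neur (8.70 to 10.8) and N (7.10 to 9.20) overlapped, and no other neighbours in this order did. The strongest summit lay at an own start site in 4 genes (numb, fng, Ser and neur), and at mam the strongest summit was 1.05 ± 0.0435 times as strong as that at the third start site of the gene.

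**Figure D3:**
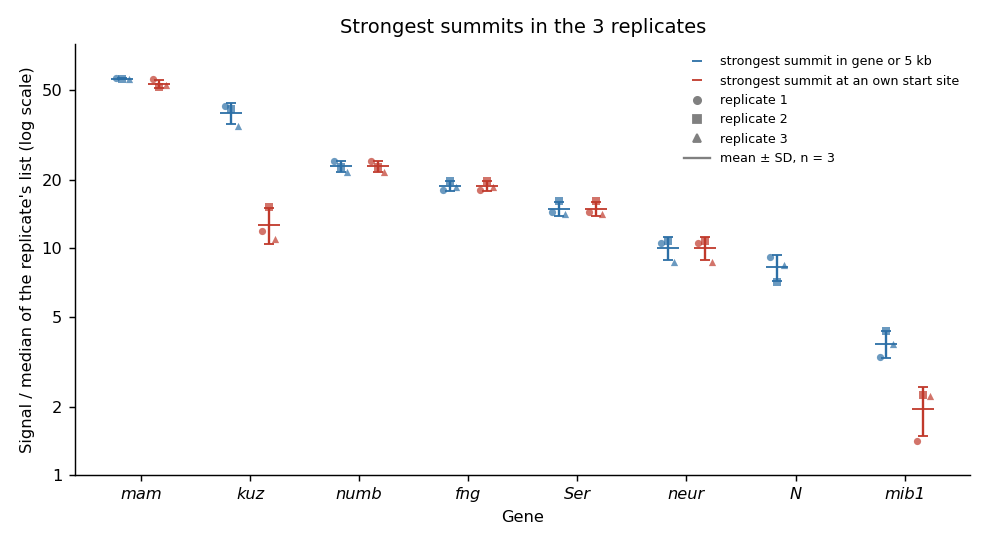
Relative signal (signal divided by the median of the replicate's list, log scale) of the strongest IDR summit of each gene and of the strongest at an own start site, for replicates 1 to 3 with the mean and SD. The order from mam (56.2) to mib1 (3.80) is the same in the 3 replicates.

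Serrate, the product of Ser (FBgn0004197; chr3R:27172090-27194267, minus strand), is a transmembrane ligand of Notch. Its main peak, chr3R:27193837-27194837, had its summit 154 bp upstream of the first start site and ranked 1015 of 8667 by signal. The relative signal there was 14.4, 16.2 and 14.2 in replicates 1, 2 and 3, a mean of 14.9 ± 1.08. The replicates were close to each other, and their summits lay within 26 bp of the IDR summit. The other summit of Ser lay in an intron 8185 bp from the first start site, near the bottom of the IDR set at rank 7626, with relative signals of 1.72, 2.35 and 2.11. This intron summit, whose window holds GTGGGAA, stood at 2.06 ± 0.314, well under the start site in each replicate.

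The ligand Delta (Dl, FBgn0000463), which is not 1 of the 10 genes, had no IDR summit at its start site. A single IDR summit lay in its window, chr3R:19310556-19310947, 15469 bp downstream of the start, with a signal of 464.7 and rank 4951. Its relative signal was 3.01 in replicate 2 and 3.68 in replicate 3, and the summit lay inside no peak of replicate 1. The pooled list held 9 summits in this window, that one included.

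The fng gene (FBgn0011591; chr3L:20925891-20949512, minus strand) encodes Fringe, a glycosyltransferase that extends the O-fucose on Notch and makes the receptor respond more to Delta and less to Serrate. It had a double peak at its start, chr3L:20949291-20950530, with summits 258 bp and 459 bp upstream. The nearer summit, whose window holds TTCGG on both strands, had relative signals of 18.1, 19.9 and 18.7, a mean of 18.9 ± 0.930 and rank 804. The farther, only 201 bp away, had 5.68, 9.11 and 6.13, a mean of 6.98 ± 1.86. The nearer summit was the stronger in each of the 3 replicates, and the farther had no TTCGG. The remaining IDR summit lay in an intron 19058 bp from the start, at 1.92 ± 0.332. Among the pooled summits at fng with a signal under 256.1, the lowest of the IDR set, the highest signal was 253.95.

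Neuralized and Mindbomb1, the products of neur (FBgn0002932; chr3R:9020348-9039471, minus strand) and mib1 (FBgn0263601; chr3L:16006552-16011812, minus strand), are E3 ubiquitin ligases that act on the ligands. The neur gene has 2 annotated start sites 5740 bp apart. At the second lay its strongest summit, 18 bp downstream, with relative signals of 10.6, 10.8 and 8.70, a mean of 10.04 ± 1.16 and rank 1526. At the first lay a weaker summit, 225 bp upstream, with 1.86, 3.14 and 2.00, a mean of 2.33 ± 0.702. The inner start site was the stronger in each replicate, and the summit at the outer one also lies 70 bp from a start site of hyx, which encodes a subunit of the Paf1 complex, so it cannot be given to either gene. A further summit 181 bp upstream of the inner start site stood at 6.605 ± 1.64. An intron summit 1762 bp downstream of the inner start site, with no TTCG in its window, had 7.54, 9.72 and 7.75, a mean of 8.34 ± 1.21. None of the 5 IDR windows of neur holds TTCGG, and 2 of the 5 hold no TTCG.

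The strongest peak of mib1 was weaker than that of any other of the 8 genes with IDR summits. Its own start site had a summit 17 bp downstream with relative signals of 1.40, 2.25 and 2.23, a mean of 1.96 ± 0.480, and rank 7531 of 8667. Its strongest summit lay outside the gene, in an intron of the downstream gene hzg, with 3.30, 4.31 and 3.77, a mean of 3.80 ± 0.506. The last lay beside the start sites of hzg and of mRpS31, a mitochondrial ribosomal protein gene, at 2.55 ± 0.467. The summit in hzg was 1.99 ± 0.336 times as strong as that at the start of mib1, and higher in each replicate, so the count of 3 summits at mib1 includes 2 that are nearer to other genes. The second start site of mib1, 1503 bp inside the first, had no IDR summit. A weak pooled summit there, with a signal of 40.9, lay in a peak of replicate 1 alone.

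The receptor gene N (FBgn0004647; chrX:3134870-3172221, plus strand) was the only gene with IDR summits in its window but none at its own start site. Its strongest summit lay downstream of the gene, 7 bp from the start of dnc, which encodes a cAMP phosphodiesterase, with relative signals of 9.20, 7.10 and 8.49, a mean of 8.26 ± 1.07. The other 5 lay in introns of N. The strongest of them, 8618 bp from the start (the window printed above), had 5.52, 7.18 and 5.59, a mean of 6.09 ± 0.938. Another, 27681 bp from the start, had 5.44, 5.92 and 4.54, a mean of 5.30 ± 0.704. At both summits replicate 2 was the highest. The remaining 3 ranged from 1.66 to 2.91 in mean relative signal. At the start site itself the pooled list held a weaker summit 30 bp downstream, with a signal of 177.9 and rank 11675 of 30000, and relative signals of 1.74, 1.198 and 0.932, a mean of 1.29 ± 0.412. A second pooled summit, 229 bp downstream, had a signal of 131.0 and a mean of 0.905 ± 0.355, with the same value in replicate 2. Each replicate list thus held a weak call at the N start site, near the list median. These calls were below the IDR set, so they do not show reproducible binding there.

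The kuz gene (FBgn0259984; chr2L:13550139-13639411, plus strand) encodes Kuzbanian, an ADAM metalloprotease that cleaves Notch after ligand binding. It had 7 IDR summits, of which 6 lay within 4288 bp upstream or 285 bp downstream of its start. The strongest, in the window printed above, lay in an intron of B4, 140 bp from a B4 start site and 2228 bp upstream of kuz, and ranked 340. It had relative signals of 42.5, 41.5 and 34.9, a mean of 39.6 ± 4.16. The summit at the kuz start itself, 80 bp downstream, had 11.99, 15.3 and 11.0, a mean of 12.8 ± 2.26. The summit at B4 was 3.14 ± 0.418 times as strong and the higher in each replicate, and which gene it acts on was not measured. A further B4 intron summit with TTCGG 3 times in its window, 1463 bp upstream of kuz, had 4.45, 4.74 and 6.80, a mean of 5.33 ± 1.28. The replicates disagreed most at a summit 84 bp from another B4 start site, with 5.13, 1.86 and 1.19 (coefficient of variation 77.3%). From its last start-site summit to the next, which lies 22 bp from the start of ics beyond the 3′ end of kuz, there were 91950 bp with no IDR summit, and the IDR summit in an intron of kuz lies 285 bp from its start. The pooled list held 3 weaker summits there, with signals up to 169.7.

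The numb gene (FBgn0002973; chr2L:9437469-9464184, plus strand) encodes an endocytic adaptor that inhibits Notch and is inherited by 1 daughter of an asymmetric division. Both of its start sites, 12361 bp apart, had an IDR summit. At the first, 47 bp downstream, the relative signal was 24.4, 22.9 and 21.7, a mean of 23.0 ± 1.35 and rank 648, which made it the second highest own-start value of the 10 genes. At the second, 152 bp upstream, it was 7.02, 9.66 and 7.07, a mean of 7.92 ± 1.51. The outer start site was thus the stronger at numb, where the inner was the stronger at neur, in each replicate. The window at the outer start holds TTCG 2 times and no TTCGG, and that at the inner start holds 1 TTCGG. A summit in an exon of the 5′ UTR, 10413 bp beyond the inner start, had 4.86, 8.12 and 6.87, a mean of 6.62 ± 1.64.

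Su(H) (FBgn0004837; chr2L:15039488-15043334, plus strand) encodes the DNA-binding factor of the pathway, and H (FBgn0001169; chr3R:20621938-20628915, plus strand) encodes Hairless, which binds that factor and recruits corepressors. No summit of any of the 5 lists lay in either gene or its 5 kb flanks. The nearest IDR summit lay 23184 bp from Su(H) and 17647 bp from H. The nearest summit of any replicate list lay 13470 bp from Su(H) and 16470 bp from H. Since the lists are limited to 30000 peaks, this says that no signal at these genes reached the bottom of the lists, not that Deaf1 was absent. Both genes are short, and 25.3% of protein-coding genes had no summit in their windows either.

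Mastermind, the product of mam (FBgn0002643; chr2R:13991203-14060356, plus strand), is the glutamine-rich coactivator that joins Suppressor of Hairless and the Notch intracellular domain. The gene held 22 IDR summits, 43.1% of those at the 10 genes, and each lay inside the gene body. Only 8 of 13945 protein-coding genes, 0.0574%, had at least as many. These were Eip75B with 40, tara with 38, Tlk with 28, Hr4 with 27 and ush with 23, and hth, jing and mam with 22 each. Among the summits of mam, some shared a peak interval, and some lay nearer to a start site of CG18371 than to one of mam. Per length, mam had 2.78 IDR summits per 10 kb of window, at least as high as in 94.0% of protein-coding genes. The 10 genes together had 1.26 per 10 kb, 0.894 without mam (left out after the values were seen), and all protein-coding genes had 0.826.

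The 3 annotated start sites of mam lie at 0, 18.0 and 40.5 kb from its 5′ end, and each of them had an IDR summit. The relative signal was 3.10, 2.58 and 4.29 at the first, a mean of 3.32 ± 0.875. At the second it was 20.9, 21.7 and 18.7, a mean of 20.4 ± 1.57. At the third, 1 bp from the start site, it was 55.9, 51.5 and 52.9, a mean of 53.4 ± 2.27 and rank 212. The value was higher at each start site farther into the gene, and the replicates of the 3 start sites did not overlap. None of these 3 windows holds TTCGG, and that at the third holds TTCG 3 times.

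**Figure D4:**
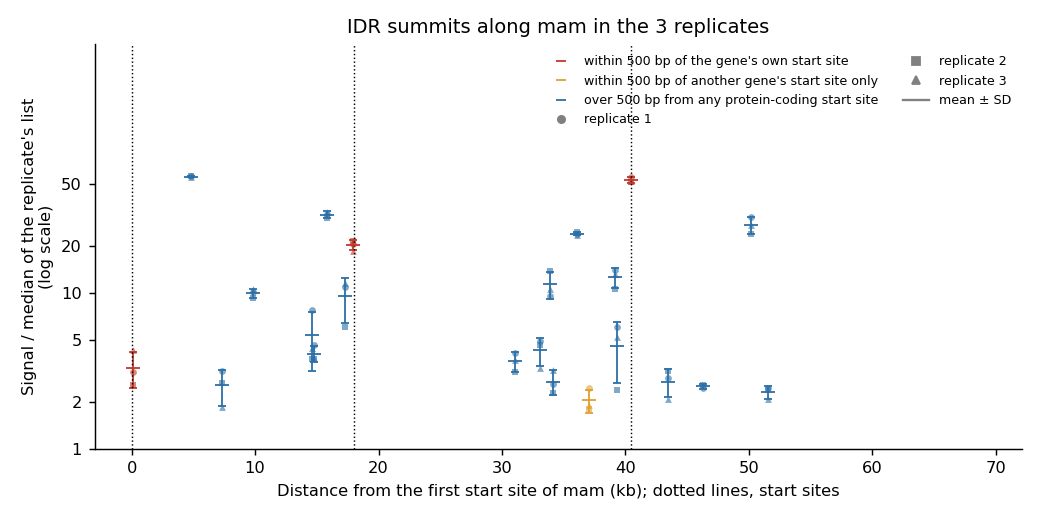
Relative signal (log scale) of the 22 IDR summits of mam against distance from its first start site in kb, for each replicate with the mean and SD; dotted lines mark the annotated start sites and colour marks the position relative to start sites. Of the 22, 18 lie over 500 bp from any protein-coding start site, and the strongest of these, at 56.2, is as high as the third start site at 53.4.

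The strongest summit of mam, and of all 10 genes, lay in an intron 4782 bp from the first start site, in the peak chr2R:13995345-13996604, and ranked 197 of 8667. Its relative signal was 56.3, 56.3 and 56.0, a mean of 56.2 ± 0.169 and the closest set of replicate values among the 51 summits. Further intron summits lay at 15847 bp with 32.4, 30.3 and 33.3, a mean of 32.0 ± 1.56, and at 50169 bp with 30.8, 24.1 and 27.3, a mean of 27.4 ± 3.34. Another at 36109 bp, nearer to a start site of CG18371 (1308 bp) than to one of mam (4351 bp), had 24.2, 24.7 and 23.7, a mean of 24.2 ± 0.528. The mean of each of these 4 exceeded that of the strongest summit of every other gene of the 10 except kuz, although at 36109 bp the replicate values overlapped those of numb (21.7 to 24.4), and 3 of the 4 windows hold TTCGG. The remaining summits of mam away from its own start sites reached 12.7 ± 1.81 at most. A summit 37012 bp from the 5′ end lay 405 bp from the start of CG18371, and another lay over the annotated microRNA gene mir-4978 at 4.10 ± 0.504. The last IDR summit lay 51516 bp from the 5′ end, at 2.31 ± 0.206. One summit, at 46281 bp, fell inside peaks of replicates 1 and 2 only, with 2.46 and 2.58. Outside the IDR set the pooled list held 41 more summits at mam, the most of the 10 genes.

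Signal at the Notch genes was somewhat above that of the IDR set as a whole. The median IDR signal was 776.4 over the 51 summits and 533.6 over all, a ratio of 1.45, which was 1.49 without mam. Taken from each replicate's own signals, the ratio was 1.46, 1.21 and 1.39, a mean of 1.35 ± 0.127 and above 1 in each replicate. The 14 summits at own start sites had a median signal of 1335 (300 to 7895), and the 37 others had 626.3 (271 to 8314). These ranges overlapped almost wholly, since the highest of all lies in an intron of mam. The medians are given as a description, without a test, and the same split over all IDR summits is not given. Summits of a gene are not independent of each other, and 16 of the 51 lay within 250 bp of another IDR summit.

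Replicate summits lay close to the IDR summits, and the replicates varied in height. The median distance was 8 bp, within 50 bp in 138 of 152 matches. The IDR summits are also in the pooled list, and the nearest replicate summit was taken, which favours small distances. Distances between replicates were not measured. The coefficient of variation of relative signal had a median of 16.9% over the 51 summits, from 0.301% at the strongest summit of mam to 77.3% at the kuz window. Replicate 2 was the highest at 24 summits, replicate 1 at 18 and replicate 3 at 8, counting the 50 summits with 3 values. When each replicate's 8667 strongest peaks were taken in place of the IDR set, they gave 51, 50 and 49 summits at these genes and 6, 7 and 7 genes with an own-start summit. Replicates 1 and 3 share 188 intervals with identical ends, against 1 for replicates 2 and 3 and 0 for replicates 1 and 2, and no list is a copy of another.

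In a wider list of 52 Notch pathway genes, which holds the 10, an IDR summit lay at a start site of 28 (53.8%), against 27.8% of protein-coding genes. Among the other 42 it was 21 (50%), with an IDR summit only elsewhere in the window at 10 and none at 11. Longer genes were bound more often, and these shares were not set beside genes of like length. Of the 11 genes of the E(spl) complex, which encode Notch-induced repressors and Bearded-family proteins, 7 were bound. Each of the 11 had an IDR summit in its window, although neighbours in this cluster share summits. Of 7 trafficking and turnover genes 2 were bound, numb and Nedd4, and 5 had no IDR summit in the window. Of the 4 gamma-secretase genes, aph-1 was bound, at 7.16 ± 2.39 and 425 bp upstream, by a summit that lies nearer to a start site of Snx21, and Psn, nct and pen-2 were not. The 6 genes with the highest relative signal at a start site were sca at 124.7 ± 2.40, E(spl)m3-HLH at 61.9 ± 0.894, mam at 53.4, numb at 23.0, nab at 21.5 ± 1.37 and fng at 18.9. The sca gene, which encodes a secreted protein that acts with Notch in spacing neural precursors, had 124.2, 122.6 and 127.3 in replicates 1, 2 and 3 at a summit 57 bp upstream of its start, rank 42 of 8667, and TTCGG 4 times in that window. Of these 6, mam, numb and fng are among the 10 genes, and the receptor gene N and the ligand gene Dl are among the 24 that were not bound.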

How the data were processed

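Peak lists from 3 biological replicates of Deaf1-GFP embryos (0 to 24 h, 1 group) were used. Per the file headers and accompanying text files, peaks were called on each replicate and on the pooled replicates against 1 control alignment, and an IDR set was derived; the control was not analysed here. Aligner, peak caller and IDR cutoff: not given in the sources used here. The deposited signal is the authors' caller value, not scaled between lists. The deposited −log10 q-values (p-values were not given) share a ceiling, 4.386 in the IDR set, and were not used to rank. Read depth is unknown, so no counting interval is given. Identical md5 sums showed the lists to be complete.

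Coordinates are 1-based on dm6. Gene models came from Ensembl release 115 and sequence from RefSeq on the same assembly. A gene's window is its body and 5 kb flanks, and a gene with an IDR summit at most 500 bp from an own start site is called bound. Replicate signal is that of the summit nearest the IDR summit among the replicate peaks that contain it, divided by the list median. Words were sought on both strands within 50 bp of the summit, and in equal windows 300 bp to the right. Computation used Python 3.11.15, numpy 2.4.6, pandas 2.3.3 and matplotlib 3.10.9, and the counting functions were tested on simulated data. The 10 genes, the wider list and the words were chosen with earlier results of these data known. Named genes are the 10, neighbours whose start sites lie by a summit, the 6 wider-list genes with the highest start-site signal, and Dl; the genes with at least as many summits as mam, the role groups of the wider list and the genes named in the additional observations were chosen after their values were seen. Sequences are those of the strongest summit outside UTRs, not of the strongest summit as first planned. Dl was matched by gene ID, and nct by a synonym. Alternatives varied the peak set, flank, assignment, start-site and word windows, and replicates left out.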

Additional observations from a re-analysis of the deposited data

How the results depend on the processing

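The number of genes with an IDR summit, 8, was also 8 with flanks of 2 kb or none, among the summits above the median signal, in the pooled list and by nearest start site. The 7 with one at an own start ranged from 6 to 8, and the wider list's 28 from 21 (summits above the median signal) to 28. With start-site windows of 250 and 1000 bp, 6 and 7 of the 10 were bound, against 24.7% and 31.2% of protein-coding genes. The wider list then gave 25 and 28. For the pooled list (8 of the 10) and the summits above the median signal (6), the share over all genes was not computed. The start-site share, 27.5%, ranged from 21.6% (250 bp) to 37.9% (without mam), and the signal ratio from 1.42 to 1.49 over the flanks and without mam; neither was computed for the other peak sets. The number of IDR summits at the 10 genes, 51, was 32 among the IDR summits above the median signal, 147 in the pooled list, 33 when a summit was given only to the gene with the nearest start site, and 29 without mam, an alternative chosen after seeing the data. The share of summits with TTCGG, 35.3%, was 21.6% within 25 bp each side, a shorter window that holds fewer words, and 43.1% within 100 bp. Among the IDR summits above the median signal it was 46.9%. The matching shares over all IDR summits are not given for these settings. The median coefficient of variation, 0.169 as a fraction, ranged from 0.105 (without replicate 2) to 0.152 with 1 replicate left out, and 0.139 without replicate 1, each from 2 values. With both start-site windows, the share of the 10 genes bound stayed above that of all protein-coding genes. The median signal at the Notch genes stayed above that of all IDR summits in each setting where the ratio was computed. Where no matching value over all genes or all IDR summits was computed, a reversal against the background could not be checked. No paired analysis was possible because there is 1 group. Limits are the unknown depth, lists cut at 30000 peaks, mixed whole embryos and 1 fly line. A peak within 5 kb of a gene is not shown to act on it, and at kuz, mib1 and N the strongest lies nearer to another gene.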

Other observations

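Near some Notch pathway genes outside the 10, the strongest peak lay away from the gene's own start site, and rumi and nct had none at it. In the window of rumi, which encodes a glucosyltransferase of Notch, the strongest IDR summit lay 4066 bp from the rumi start in the 5′ UTR of CG7029, with relative signals of 31.6, 32.4 and 32.9. In the window of nct, a gamma-secretase gene, it lay 4628 bp upstream in an intron of Esp, with 7.12, 8.85 and 7.26. Near E(spl)m3-HLH, a summit 855 bp upstream of its start had 87.8, 91.2 and 77.2, a mean of 85.4 ± 7.31 and above that at the start itself in each replicate. These genes were chosen after their values were seen.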
